A study of Mus musculus with 16 samples.

Results

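Cardiomyocytes of the left ventricle were compared between late and early stages of a pressure overload model in male mice. The model is transverse aortic constriction (TAC), in which a band around the aorta raises the load against which the left ventricle pumps. Single cells were profiled with polyadenylated RNA sequencing. The late arm holds 3 mice labelled 8w and 2 labelled 11w, and the early arm 2 mice labelled 0w and 2 labelled 2w, where the label is the disease stage in weeks. The labels name no strain, age, genotype or drug, and do not say whether the 0w mice were operated on, so 0w is the first stage here and not a sham group. Cells were those that the authors annotated as CM, and the counts of all CM cells of a mouse were added up, for mice with 10 or more of them. This gave 3640 CM cells of 9 mice, 1541 at 8w and 11w and 2099 at 0w and 2w, out of 5656 CM cells and 11492 cells of all types in 16 mice. The 5w mice, between the arms in stage, entered only an alternative fit.

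A heart under chronic pressure load enlarges its muscle cells, which then return to parts of a fetal gene program. Natriuretic peptides and the slow myosin of the embryonic mouse ventricle are its usual readouts. The healthy adult cardiomyocyte burns mostly fatty acids, with genes controlled by the PPAR nuclear receptors and their coactivator PGC-1 alpha, and failing hearts are known for lower expression of that machinery. Thyroid hormone favours the fast adult myosin Myh6 over the slow Myh7, and deiodinases set how much active hormone a cell makes from its precursor.

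The promoters of 3 genes that the results turn on are shown. Nppb encodes a natriuretic peptide, Dio2 passed the test in the fit without 8w replicate 1, and Ucp3 is the PPAR target with the widest gap between the arms. Each line runs from 250 bases before the annotated start to 50 after it, 5′ to 3′ on the gene's strand, from RefSeq on GRCm38.p6. Capitals mark motifs that were searched on both strands. In Nppb, on chromosome 4 (chr4:147985650-147985949, plus strand), they mark the MCAT motif CATTCC, bound by TEAD factors and here on the other strand, 105 bases before the start, and the GATA motif AGATAA, 84 bases before it.
Nppb: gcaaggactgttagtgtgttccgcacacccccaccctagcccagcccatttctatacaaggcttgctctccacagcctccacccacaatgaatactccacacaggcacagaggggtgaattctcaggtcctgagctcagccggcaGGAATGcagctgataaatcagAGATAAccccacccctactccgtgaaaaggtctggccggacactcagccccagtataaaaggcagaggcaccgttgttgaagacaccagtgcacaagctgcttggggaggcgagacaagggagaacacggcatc
In Dio2, on chromosome 12 (chr12:90738989-90739288, minus strand), they mark the cyclic AMP response element TGACGTCA 95 bases before the start and an MCAT motif on the other strand, 36 bases before it.
Dio2: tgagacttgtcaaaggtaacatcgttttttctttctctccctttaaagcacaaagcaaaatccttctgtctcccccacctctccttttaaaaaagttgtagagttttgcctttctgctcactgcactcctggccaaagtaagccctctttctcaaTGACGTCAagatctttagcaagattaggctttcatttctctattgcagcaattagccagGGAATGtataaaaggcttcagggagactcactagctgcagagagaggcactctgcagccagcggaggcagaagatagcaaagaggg
In Ucp3, on chromosome 7 (chr7:100472741-100473040, plus strand), they mark the nuclear receptor core motif AGGTCA, 149 and 44 bases before the start.
Ucp3: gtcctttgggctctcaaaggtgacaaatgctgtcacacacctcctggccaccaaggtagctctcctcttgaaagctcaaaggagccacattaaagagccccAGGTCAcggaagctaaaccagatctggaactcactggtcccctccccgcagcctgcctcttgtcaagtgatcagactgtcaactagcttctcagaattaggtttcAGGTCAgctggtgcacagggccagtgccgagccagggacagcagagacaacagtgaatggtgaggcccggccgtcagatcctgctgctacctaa
Of 32851 such windows, 14.7% held the MCAT motif, 11.2% the GATA motif, 1.79% the cyclic AMP element and 16.3% the receptor motif, so each match is a description of the letters and no evidence of binding. Windows not shown were searched as well. Only these exact letters were searched, and variants that the same factors may bind were not, so an unmarked site is not an absent one. In these exact letters, the window of Nppa, another natriuretic peptide gene, held none of the motifs. That of the PPAR target Pdk4 held the GATA motif but no receptor motif.

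Before the genes, the sums themselves differed between the arms. By the cell names, no plate held CM cells of more than 1 of the 4 stages compared, so late and early stage and plate cannot be told apart. Mitochondrially encoded genes took 61.7%, 66.3% and 75.4% of CM UMIs (unique molecular identifiers, the counted molecules) in 8w replicates 1, 2 and 3 and 88.2% and 85.4% at 11w, against 63.8% and 62.1% at 0w and 57.2% and 47.3% at 2w. The arms averaged 75.4% ± 11.6 (SD, n = 5) and 57.6% ± 7.43 (SD, n = 4), with an exact two-sided permutation p = 0.0556, adjusted over 5 such measures to 0.0926. These genes were left out of every count that follows, except where they are said to be kept. The median CM cell then held 10301 to 13443 UMIs at 8w and 11w and 13045 to 23684 at 0w and 2w, and the sums per mouse held 2561972 to 9780572 UMIs at 8w and 11w, against 9764166 to 27690918 at 0w and 2w.

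Summed markers of cardiomyocytes were detected for 8 of 8 genes and had a lower mean at 8w and 11w for 8 of 8. They held 15232, 46415 and 28750 CPM (counts-per-million of the non-mitochondrial UMIs) in 8w replicates 1, 2 and 3 and 18547 and 22788 at 11w, against 43272 and 50352 at 0w and 61217 and 77865 at 2w. This difference had an exact permutation p = 0.0238, adjusted to 0.0595, where 126 splits of 9 mice allow no p below 0.00794. The defining markers were thus present in every mouse, with lower sums in the late arm. These sums carry no scaling factor, and the total they are divided by includes nuclear copies of mitochondrial genes, described below. The copies took 10.9% to 49.6% of that total in late mice and 8.34% to 20.3% in early ones. Their part in the lower marker sums was not tested. In 8w replicate 1, which shares its plate with a 5w mouse, markers of fibroblasts, endothelial cells and mural cells were at their highest, 4543, 5328 and 2442 CPM, against at most 2492, 3372 and 847 in any 0w or 2w mouse. That mouse gave 123 CM cells, of which the authors placed 54.5% in their subcluster CM5. The main results are given with and without it, and several single genes only without it. In the other late mice, fibroblast markers ranged from 1024 to 1297 and endothelial markers from 544 to 1604, with early ranges of 912 to 2492 and 1519 to 3372. Macrophage markers ranged from 71.8 to 481 at 8w and 11w, against 205 to 711 at 0w and 2w, and T cell markers from 0.204 to 7.35, against 2.92 to 17.6, with Cd3e, Cd2 and Trac at 0 in 8w replicate 1. Atrial markers ranged from 40.8 to 909, against 150 to 3861, with Sln and Bmp10 at 0 in that mouse. Erythroid markers ranged from 3756 to 88449 CPM at 8w and 11w, against 4249 to 24347 at 0w and 2w. The part of these measures in the gene results was not tested.

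**Figure D1:**
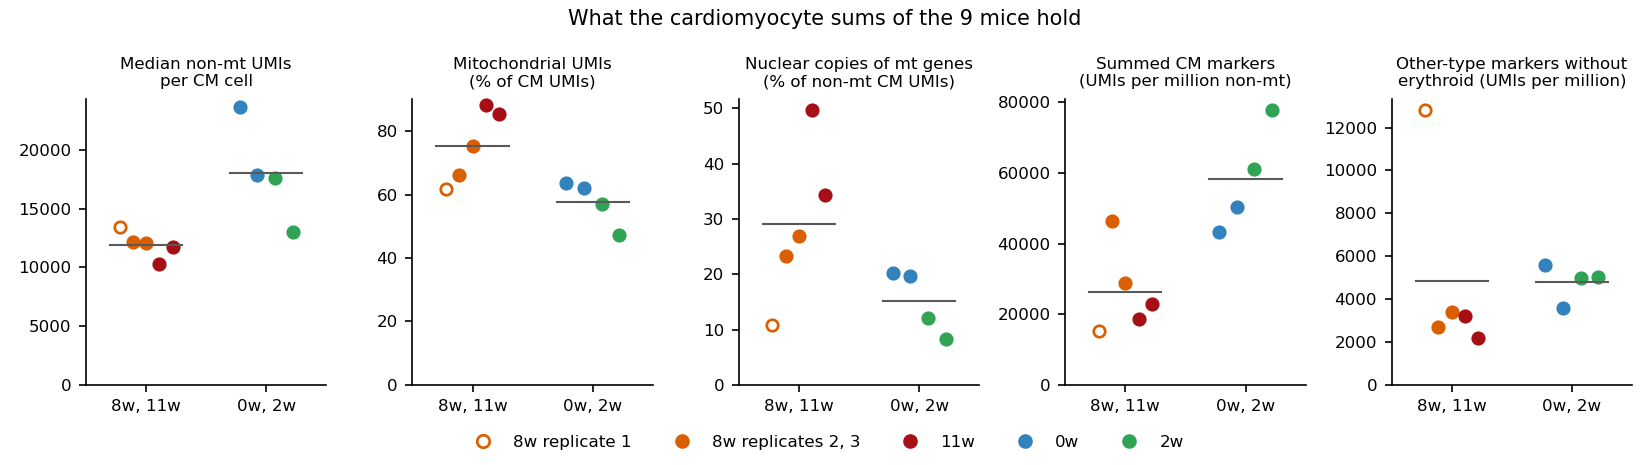
Each point is 1 mouse, with 8w and 11w left of 0w and 2w in each panel, the grey bar is the arm's mean and the hollow point is 8w replicate 1. The panels give, on linear axes from 0, the median non-mitochondrial UMIs per CM cell, the mitochondrial percentage, the percentage held by nuclear copies of mitochondrial genes, and the summed markers of cardiomyocytes and of other types in CPM. Mitochondrial shares reach 88.2% and 85.4% at 11w, and cardiomyocyte markers reach at most 46415 CPM in late mice, against 43272 to 77865 CPM in early ones.

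The nuclear genome holds old copies of mitochondrial genes, and 9 of them took a share of the non-mitochondrial UMIs that was also highest at 11w. It was 10.9%, 23.3% and 26.9% in 8w replicates 1, 2 and 3 and 49.6% and 34.4% at 11w, against 20.3% and 19.8% at 0w and 12.2% and 8.34% at 2w. The most abundant, the pseudogene Gm13340, matches mt-Co1, a subunit of cytochrome c oxidase, over 1545 bases with 37 mismatches. A stretch of 90 bases shows how little separates them, with the 5 differing bases in capitals (GENCODE on GRCm38, chr2:22589114-22589203, minus strand, and chrM:5772-5861, plus strand).
Gm13340: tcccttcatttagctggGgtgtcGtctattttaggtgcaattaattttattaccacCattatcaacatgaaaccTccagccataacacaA
mt-Co1: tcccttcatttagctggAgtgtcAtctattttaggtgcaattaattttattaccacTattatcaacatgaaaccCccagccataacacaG
Reads of such stretches can be split between gene and copy, so the copies are reported as uncertain. In the fit without 8w replicate 1, Gm13340 had a log2 fold change of 1.79 ± 0.45 (SE) and an edgeR adjusted p = 0.246. Leaving the copies out of the sums did not move either count of called genes.

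Few single genes passed the test. With all 9 mice, 1 of 13358 genes was called (0.00749%) by edgeR's quasi-likelihood test at a Benjamini-Hochberg adjusted p under 0.05. Without 8w replicate 1, 2 of 13093 were called (0.0153%). At an unadjusted p under 0.05 there were 1128 and 1294 genes. DESeq2 called 119 and 220. Of the members of 21 gene lists described below, 0 of 451 were called with 9 mice and 0 of 449 without 8w replicate 1. For single genes this means that most differences below, large as they are between some mice, did not pass the test. The counts moved with how mice and cells were weighted. Without 8w replicate 1, 34 of 15008 genes were called when the 4 stages were given a mean each (0.227%), and 19 of 6716 after every cell was thinned to 2000 UMIs (0.283%). When each gene's top cell in each mouse was left out, a setting chosen after seeing the data, 29 of 11739 were called (0.247%). These 3 sets shared 9 genes: CT030684.1, Gm11512, Gm20594, Myh7, Nppb, Ppp1r3c, Tmem101, Vav2 and Xirp2. Gm11512 is a nuclear copy of mt-Co1 and thus uncertain. Of the 34 genes called with stage means, 16 had names of predicted genes (Gm or Rik), 7 of them nuclear copies of mitochondrial genes. The count of 34 became 4 to 202 when 1 more mouse was left out. It was 4 without 0w replicate 2, 5 without 0w replicate 1 and 14 without 8w replicate 3. It was 18 and 19 without either 2w mouse, 74 without 11w replicate 1 and 202 without 11w replicate 2.

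The single gene called with all 9 mice was CT030684.1, a transcript known here only by this identifier. It had 349, 208 and 339 CPM (for single genes scaled by edgeR's TMM factors) in 8w replicates 1, 2 and 3 and 429.8 and 261 CPM in 11w mice, against 68.4 and 47.0 CPM at 0w and 27.3 and 28.9 CPM at 2w. Every late mouse lay above every early one. The log2 fold change was 2.89 ± 0.37 (SE) with 9 mice, at an edgeR adjusted p = 0.0272, and 2.86 ± 0.36 without 8w replicate 1, at an adjusted p = 0.0188. The call was lost in 6 of 9 fits that left out 1 mouse, at adjusted p of up to 0.249: those without 8w replicate 3, either 11w mouse, 0w replicate 2 or either 2w mouse. Without 8w replicate 1 it was lost when 8w replicate 3, 11w replicate 1, 0w replicate 2 or either 2w mouse was left out. It was also lost without a scaling factor, at an adjusted p = 0.153 with 9 mice. The same transcript was higher outside the cardiomyocytes: summed fibroblasts held 323 to 4351 CPM at 8w and 11w, against 77.4 to 598 at 0w and 2w, and endothelial cells 391 to 4481, against 95.3 to 605.

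Dio2, the type 2 deiodinase that makes active thyroid hormone inside the cell, was the second call, and edgeR made it in the fit without 8w replicate 1 but not with 9 mice. It lies on chromosome 12 from 90724552 to 90739038 (GRCm38), and its promoter is printed above. Its level was 0, 24.1 and 87.8 CPM in 8w replicates 1, 2 and 3 and 22.5 and 31.7 CPM in 11w mice, against 0.444 and 0.581 CPM at 0w and 0.405 and 0.291 CPM at 2w. The 4 late mice with signal were all far above the early mice, while 8w replicate 1 was at 0. Without that mouse the log2 fold change was 6.61 ± 0.67 (SE) with an edgeR adjusted p = 0.00318, and this fit still called it whichever further mouse was left out, at adjusted p from 0.00258 to 0.0436. With all 9 mice it was 6.27 ± 1.25 with an edgeR adjusted p = 0.375, while DESeq2 called it there at 2.22e-07. With stage means and without 8w replicate 1 the adjusted p was 0.00418, but 0.0791 when 0w replicate 1 and 0.0692 when 0w replicate 2 was also left out, and without 8w replicate 1 but with the 5w mice, in a fit of stage means, the adjusted p was 0.233. Dio2 was named after its values were seen, because it was 1 of 2 calls. It passed the low-count filter through the late mice alone, as the early mice together held 34 UMIs. The call and the fits with 1 more mouse left out are therefore no independent support for a difference.

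The Dio2 signal came from few cells. Of the CM cells, 0 of 123, 30 of 579 and 25 of 441 held a Dio2 UMI in 8w replicates 1, 2 and 3, and 8 of 175 and 10 of 223 at 11w, which is 0%, 5.18%, 5.67%, 4.57% and 4.48%. The shares at 0w were 0.907% and 0.783%, and those at 2w 1.73% and 1.13%. The 0 of 123 cells allows a share of up to 2.44%. The median CM cell was shallower in the late arm, 11900 UMIs against 18740. Dio2 could not be tested after thinning. In 8w replicate 3, 1 cell held 465 of the 630 UMIs (73.8%), and with the top cell of each mouse left out the log2 fold change was 6.44, at an adjusted p = 0.00016. Dio2 UMIs were also in 12.6% of late fibroblasts (95% exact binomial interval 10.6% to 14.9%), against 3.29% of early ones (1.93% to 5.22%), and in 3.01% of late T cells, against 0.779% of early ones. Those intervals cover counting error only. The late CM share over all mice, 4.74% (3.73% to 5.92%), lay below that of the fibroblasts, and its interval overlapped that of late T cells (0.825% to 7.52%), which are not known for Dio2. These shares therefore do not separate expression in cardiomyocytes from background. Among other genes of the hormone's path, the receptors Thra and Thrb had log2 fold changes of 0.81 and -0.91 without 8w replicate 1, at adjusted p of 0.659 and 0.703. These genes were chosen after Dio2 was seen.

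The fetal and hypertrophy list held 19 tested genes, and 18 of them had a positive log2 fold change without 8w replicate 1. Its median was 1.07, beside 0.042 over all genes. In 5 of them every late mouse of that fit lay above every early one, set against 2.72% of all genes with that pattern in that direction and 3.64% in the other. With 9 mice 16 of 19 were positive with a median of 1.06, and 0 of 19 were free of overlap, where 1.33% of all genes lay above and 2.34% below. Relative to all genes, the median without that mouse lay between 0.785 and 1.13 over the scalings and alternatives tried, while with 9 mice it was 0.969 and fell to 0.301 without the 11w mice. List values and fold changes below are from the fit without 8w replicate 1 unless 9 mice are named.

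Nppb encodes B-type natriuretic peptide, a hormone that the stretched ventricle secretes. It had 12.8, 1594 and 1938 CPM in 8w replicates 1, 2 and 3 and 2114 and 1503 CPM in 11w mice, against 208 and 296 CPM at 0w and 584 and 648 CPM at 2w. The 4 late mice other than 8w replicate 1 were above both 2w mice, and these above both 0w mice. Their mean was 1787 ± 287 CPM (SD, n = 4), against 434 ± 215 CPM (SD, n = 4). This gave a log2 fold change of 2.05 ± 0.34 (SE), with an edgeR adjusted p = 0.0983 that missed the threshold; it passed with thinned cells (0.0319), stage means (0.00418) and the top cell left out (0.0161). With all 9 mice it was 1.72 ± 0.83, at an adjusted p = 0.594.

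Xirp2 encodes a protein that binds actin at the intercalated disc and costamere. It had 138, 3466 and 2855 CPM in 8w replicates 1, 2 and 3 and 5130 and 9186 CPM in 11w mice, against 937 and 767 CPM at 0w and 981 and 1456 CPM at 2w. The late mice other than 8w replicate 1 lay well above the highest early mouse, and the 11w mice highest. Without 8w replicate 1 the log2 fold change was 2.33 ± 0.36 (SE), with an edgeR adjusted p = 0.0802 and of 0.00757 with thinned cells; with 9 mice it was 2.01 ± 0.73, at 0.555.

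Myh7, the slow myosin heavy chain of the fetal mouse ventricle, had 56.8, 1065 and 1774 CPM in 8w replicates 1, 2 and 3 and 1923 and 3557 CPM in 11w mice, against 339 and 418 CPM at 0w and 687 and 943 CPM at 2w. Levels in the late mice other than 8w replicate 1 again all exceeded those of the 4 early ones. Its log2 fold change was 1.82 ± 0.40 (SE), with an adjusted p = 0.189, and of 0.0422 with thinned cells, and 1.49 ± 0.73 with 9 mice. Nppa, the atrial natriuretic peptide, had 1.76, 157 and 404 CPM in 8w replicates 1, 2 and 3 and 187 and 687 CPM in 11w mice, against 26.2 and 9.20 CPM at 0w and 154 and 69.0 CPM at 2w. Its lowest late value, leaving 8w replicate 1 aside, was just over that of 2w replicate 1, and its log2 fold change was 2.49 ± 0.72 at an adjusted p = 0.311, and 2.15 ± 1.04 with 9 mice. Summed atrial markers were highest in 2w replicate 1, at 3861 CPM, and next in 8w replicate 3, at 909 CPM. They were lowest, at 40.8 CPM, in 11w replicate 2, which held the most Nppa. The part of atrial cells in these levels was not tested.

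Ankrd1, a stretch-responsive repeat protein of the titin filament, had 364, 4929 and 4394 CPM in 8w replicates 1, 2 and 3 and 10544 and 12828 CPM in 11w mice, against 1403 and 1492 CPM at 0w and 5176 and 4428 CPM at 2w. The 2w mice were close to 8w replicates 2 and 3, and the 11w mice were the highest. The log2 fold change was 1.402 ± 0.47 (SE), at an adjusted p = 0.381 and of 0.00418 with stage means, and 1.08 ± 0.72 with 9 mice. Acta1, the skeletal actin of the fetal heart, had 172, 1567 and 1742 CPM in 8w replicates 1, 2 and 3 and 1654 and 1064 CPM in 11w mice, against 702 and 428 CPM at 0w and 1443 and 2626 CPM at 2w. Its arms overlapped, and the log2 fold change of 0.23 ± 0.44 without 8w replicate 1 was -0.07 ± 0.59 with it. Cnn1, a smooth muscle calponin, had a log2 fold change of 5.48 ± 1.18 at an adjusted p = 0.189, from 214 UMIs at 8w and 11w and 17 at 0w and 2w.

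**Figure D2:**
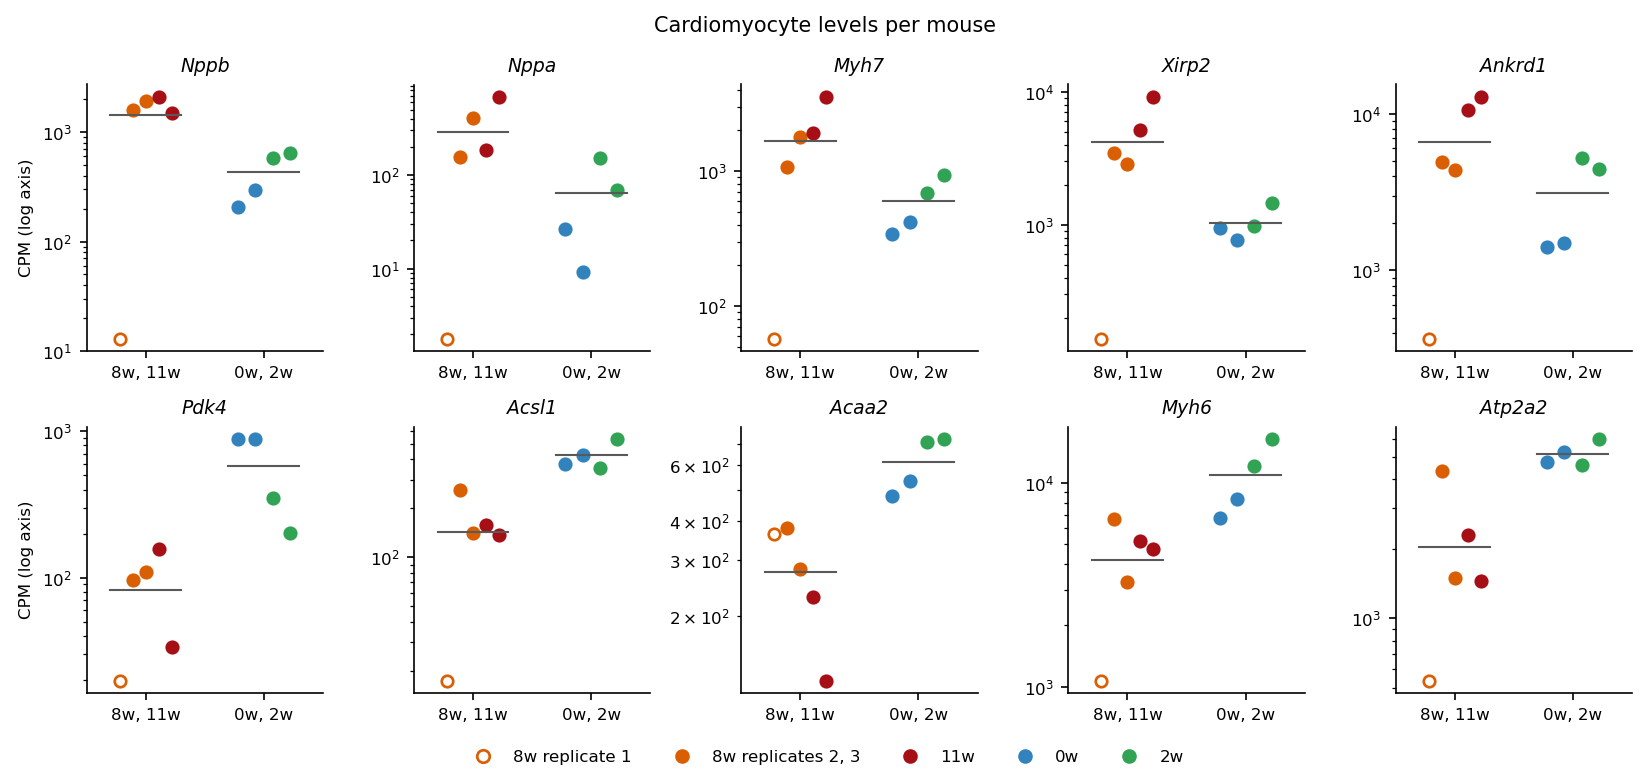
Each point is 1 mouse's CPM on a log axis, with 8w and 11w left of 0w and 2w, the bar being the arm's mean and the hollow point 8w replicate 1. The late mice of Nppb, Myh7 and Xirp2 other than the hollow one lie above the early mice, Pdk4 spans 19.6 to 156 CPM in late mice and 201 to 891 CPM in early ones, and the arms of Ankrd1 overlap.

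Genes of the contractile apparatus and of calcium handling had a lower median. In the sarcomere list 6 of 23 tested genes were positive without 8w replicate 1, with a median of -0.19, and 5 with 9 mice, with a median of -0.44. That first median turned to 0.0901 above all genes when the top cell of each gene was left out. Myh6, the fast adult myosin heavy chain, had 1062, 6686 and 3256 CPM in 8w replicates 1, 2 and 3 and 5185 and 4731 CPM in 11w mice, against 6713 and 8378 CPM at 0w and 12113 and 16561 CPM at 2w. Every late mouse was below every early one, although 8w replicate 2 came close to 0w replicate 1. For Myh6 the log2 fold change was -1.13 ± 0.31 (SE) without 8w replicate 1 and -1.39 ± 0.45 with it, at edgeR adjusted p of 0.265 and 0.504. Tcap, which ties titin to the Z disc, had a log2 fold change of -1.18 ± 0.26 at an adjusted p = 0.194, and of 0.0206 with stage means. Myom2, an M-band protein, and Des, the muscle intermediate filament, went the other way at 1.13 ± 0.28 and 0.96 ± 0.27, also short of the threshold.

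Of the 16 calcium handling genes, 6 were positive, with a median of -0.18, and 4 with 9 mice, with a median of -0.48. Atp2a2, the pump that returns calcium to the sarcoplasmic reticulum, had 533, 4369 and 1496 CPM in 8w replicates 1, 2 and 3 and 2302 and 1451 CPM in 11w mice, against 4735 and 5280 CPM at 0w and 4627 and 6009 CPM at 2w. All early mice lay above all late ones, and the late mice spread more widely. For this pump gene the log2 fold change was -1.10 ± 0.33 (SE), at an adjusted p = 0.331, and -1.35 ± 0.46 with 9 mice. Its inhibitor Pln, the release channel Ryr2 and the luminal calcium binder Hrc had log2 fold changes of -0.41, -0.63 and -1.42, at adjusted p of 0.577, 0.508 and 0.268. The potassium channel gene Kcnd2, which carries part of the transient outward current, had one of -2.23 ± 0.59 at an adjusted p = 0.265, and the desmosomal Dsp one of 0.66.

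Genes of fatty acid use had mostly negative fold changes. Of 27 tested genes of fatty acid oxidation, 3 were positive without 8w replicate 1, with a median of -0.59, and 1 with 9 mice, with a median of -0.73. In 8 of them every late mouse lay below every early one (7 with 9 mice), beside 3.64% and 2.34% of all genes. Relative to all genes, the median without 8w replicate 1 stayed between -0.64 and -0.38. Acsl1, which activates long-chain fatty acids, had 17.2, 259 and 141 CPM in 8w replicates 1, 2 and 3 and 158 and 137 CPM in 11w mice, against 373 and 428 CPM at 0w and 353 and 537 CPM at 2w. Its log2 fold change was -1.27 ± 0.27 (SE), with an edgeR adjusted p = 0.172, and -1.57 ± 0.51 with 9 mice. Acaa2, the thiolase of the last step of the spiral, had 365, 379 and 282 CPM in 8w replicates 1, 2 and 3 and 229 and 124 CPM in 11w mice, against 480 and 533 CPM at 0w and 711 and 727 CPM at 2w. No late mouse reached an early one, and the log2 fold change was -1.26 ± 0.31 at an adjusted p = 0.242, and -1.15 ± 0.33 with 9 mice. Cpt2, which completes the carnitine shuttle, and the isomerase Ech1 had log2 fold changes of -1.32 ± 0.37 and -0.84 ± 0.26. Fabp3, the fatty acid carrier of the muscle cytosol, was at -0.01.

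Downstream, 1 of 23 tested genes of the tricarboxylic acid cycle was positive, with a median of -0.43 (-0.59 with 9 mice), and 6 were free of overlap and lower, in both fits, beside 3.64% of all genes without 8w replicate 1 and 2.34% with 9 mice. Citrate synthase (Cs), its entry enzyme, had 127, 309 and 143 CPM in 8w replicates 1, 2 and 3 and 156 and 188 CPM in 11w mice, against 352 and 404 CPM at 0w and 372 and 430 CPM at 2w. All late values were below all early ones, with a log2 fold change of -0.96 ± 0.27 (SE) at an adjusted p = 0.278, and -1.08 ± 0.29 with 9 mice. The malate dehydrogenase Mdh2 was at -0.78 ± 0.24. Of the 52 nuclear genes of oxidative phosphorylation, 11 were positive, with a median of -0.24, and 4 with 9 mice, with a median of -0.40. The first median lay 0.0864 above all genes without the 11w mice and 0.0541 above when the top cell was left out, so the direction of this list depended on those choices. The complex III subunits Uqcrc1 and Cyc1 had log2 fold changes of -1.09 ± 0.32 and -0.93 ± 0.27. The creatine kinases Ckm and Ckmt2, which carry phosphate from the mitochondrion to the sarcomere, were at -1.31 ± 0.37 and -0.97 ± 0.31. In glycolysis, where 6 of 20 genes were positive, the hexokinase Hk1 was at 1.07 ± 0.35 and the lactate dehydrogenase subunit Ldhb at -0.70. Adjusted p of these genes without 8w replicate 1 ranged from 0.278 to 0.374.

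The PPAR targets and coactivators were next. Of 20 tested genes 5 were positive, with a median of -0.40 (-0.43 with 9 mice), and 5 were free of overlap and lower and 1 higher, beside 3.64% and 2.72% of all genes. With 9 mice 5 were lower and 0 higher, beside 2.34% and 1.33%. Pdk4 encodes the kinase that shuts pyruvate dehydrogenase and so favours fatty acids over glucose. It had 19.6, 96.0 and 109 CPM in 8w replicates 1, 2 and 3 and 156 and 33.5 CPM in 11w mice, against 891 and 887 CPM at 0w and 348 and 201 CPM at 2w. The 0w mice were highest, the 2w mice between, and every late mouse lowest. The log2 fold change was -2.56 ± 0.52 (SE) without 8w replicate 1, with an edgeR adjusted p = 0.158, and -3.17 after thinning, with an adjusted p = 0.0125, so Pdk4 fell in that fit. With 9 mice it was -2.82 ± 0.59, at an adjusted p = 0.387, and of 0.0318 after thinning.

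Counted by cells, a Pdk4 UMI was present in 4.88%, 21.8% and 15.7% of CM cells of 8w replicates 1, 2 and 3 and in 8.00% and 8.07% at 11w, against 94.9% and 92.2% at 0w and 67.1% and 52.9% at 2w. With every cell thinned to 2000 UMIs the shares were 0.820%, 7.79% and 5.24%, and 2.99% and 1.36%, against 66.7% and 62.7%, and 36.4% and 25.0%, in the same order of mice. Thinning left out 1 to 8 cells per late mouse and 2 to 41 per early mouse. In cell types that should hold little of it, a Pdk4 UMI was found in 2.26% to 9.80% of late and 10.7% to 37.8% of early cells. The CM shares at 0w and 2w lay above all of these, while those of 8w replicate 1 and both 11w mice lay within the late range. In each of these other types the share was also lower in late than in early cells. The part of free RNA in the CM shares was not tested.

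Ucp3, the uncoupling protein of muscle mitochondria whose promoter is printed above, had 0.441, 2.68 and 0.279 CPM in 8w replicates 1, 2 and 3 and 0 and 0.377 CPM in 11w mice, against 30.1 and 24.1 CPM at 0w and 14.9 and 12.5 CPM at 2w. This rests on 29 UMIs in the late mice other than 8w replicate 1, against 1567 in the early ones. The log2 fold change was -4.29 ± 0.85 (SE), at an adjusted p = 0.153 and of 0.0353 with thinned cells, and -4.50 ± 0.85 with 9 mice, at 0.375. Angptl4, a secreted inhibitor of lipoprotein lipase, had 0.220, 4.13 and 1.39 CPM in 8w replicates 1, 2 and 3 and 0 and 3.77 CPM in 11w mice, against 20.1 and 11.5 CPM at 0w and 17.4 and 15.4 CPM at 2w. It was at -2.70 ± 0.74 (-3.01 ± 0.85 with 9 mice), with an adjusted p = 0.265, and of 0.0263 with the top cell left out. Plin5, a lipid droplet protein of oxidative tissue, was at -1.49 ± 0.40, and Ppargc1a, which encodes PGC-1 alpha, at -0.94 ± 0.48, where 0w replicate 2 held 210.0 CPM and the other early mice 60.9 to 78.9 CPM.

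**Figure D3:**
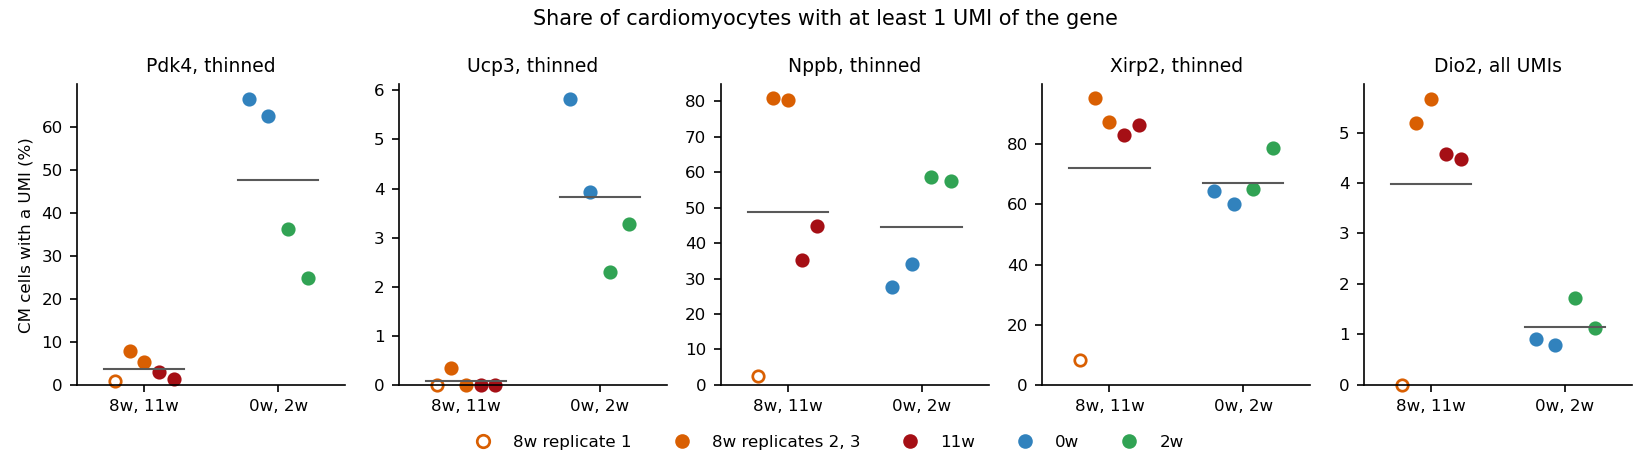
Percentage of CM cells of a mouse with at least 1 UMI, with 8w and 11w left of 0w and 2w, bars for the arm means and a hollow point for 8w replicate 1; 4 panels use cells thinned to 2000 UMIs and the Dio2 panel all UMIs. Thinned Pdk4 shares reach 7.79% in late mice, against 25.0% to 66.7% in early ones, while Nppb shares overlap between the arms.

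Thinned Nppb shares were 2.46%, 80.8% and 80.4% in 8w replicates 1, 2 and 3 and 35.3% and 44.8% at 11w, against 27.5% and 34.1% at 0w and 58.6% and 57.6% at 2w. At 11w they lay below those at 2w although the CPM lay above, and no order is read from them. A single cell held 39.1% of the Nppb UMIs of 11w replicate 1. Nppb UMIs were also found in 24.0% of late fibroblasts, against 7.36% of early ones, and in 29.3% of late macrophages, against 37.8% of early ones. Thinned Xirp2 shares were 8.20%, 95.5% and 87.2%, and 83.2% and 86.4%, against 64.5% and 60.1%, and 65.1% and 78.9%, in the same order. In 11w replicate 2, 1 cell held 27.3% of the Xirp2 UMIs, and the top Myh7 cell held 25.3% of the Myh7 UMIs. Xirp2 UMIs were also found in 39.4% of late fibroblasts, against 16.1% of early ones, and in 41.95% of late macrophages, against 45.6% of early ones.

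Of 21 tested genes of the endoplasmic reticulum and integrated stress response, 15 were positive without 8w replicate 1, with a median of 0.44 (17 and 0.36 with 9 mice), and 4 were free of overlap and higher, beside 2.72% of all genes (1 with 9 mice, beside 1.33%). Gdf15, a secreted stress hormone, had 9.25, 13.7 and 23.6 CPM in 8w replicates 1, 2 and 3 and 70.02 and 32.4 CPM in 11w mice, against 5.99 and 7.84 CPM at 0w and 9.11 and 2.12 CPM at 2w. Every late mouse was above every early one, though 8w replicate 1 hardly so, and the log2 fold change was 2.47 ± 0.62 (SE) at an adjusted p = 0.246, and 2.23 ± 0.69 with 9 mice. The chaperones Hspa5 and Calr were at 0.46 and 0.57. All 24 tested immediate early genes were positive, between 0.02 and 1.09, with a median of 0.43, while 0 were free of overlap. With 9 mice 23 of 24 were positive, with a median of 0.42. Such genes respond to tissue dissociation, and the digestion of each sample is not given beyond the choice of enzyme.

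Of 48 extracellular matrix genes, 33 were positive without 8w replicate 1, with a median of 0.40 (40 and 0.70 with 9 mice), and 4 were free of overlap and higher, beside 2.72% of all genes (2 with 9 mice, beside 1.33%). Fibroblasts make most of these, and their markers are given above. Postn, the matricellular protein periostin, had 117, 147 and 165 CPM in 8w replicates 1, 2 and 3 and 136 and 260.0 CPM in 11w mice, against 20.4 and 8.81 CPM at 0w and 64.0 and 105 CPM at 2w. The arms did not overlap, with a log2 fold change of 1.85 ± 0.59 (SE) at an adjusted p = 0.361, and 1.74 ± 0.58 with 9 mice. Thbs1, a thrombospondin, was at 2.16 ± 0.49 with an adjusted p = 0.195, and Ctgf, a connective tissue growth factor made also by stressed myocytes, at 1.78 ± 0.44 with an adjusted p = 0.242, and of 0.0240 with stage means. Of 17 MHC and interferon genes 5 were positive, with a median of -0.58 (6 and -0.44 with 9 mice), where H2-K1 was at -0.88 and the immunoproteasome subunit Psmb9 at -1.89.

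The metallothionein Mt1, a metal-binding antioxidant, had 453, 507 and 516 CPM in 8w replicates 1, 2 and 3 and 926 and 709.9 CPM in 11w mice, against 2119 and 2371 CPM at 0w and 937 and 724 CPM at 2w. The 0w mice stood apart, while the ranges of the 2w and 11w mice overlapped. The log2 fold change was -1.20 ± 0.37 (SE), with an adjusted p = 0.348 and of 0.0360 with stage means, and -1.31 ± 0.38 with 9 mice. Mt2 was at -1.84 ± 0.46 with an adjusted p = 0.246. Nmrk2, a kinase that makes NAD from nicotinamide riboside in stressed muscle, had 19.8, 45.0 and 62.4 CPM in 8w replicates 1, 2 and 3 and 52.04 and 187 CPM in 11w mice, against 2.66 and 5.71 CPM at 0w and 52.4 and 40.7 CPM at 2w, so that the 2w mice were within the range of the late ones. The small heat shock protein Cryab was at 0.34 ± 0.27.

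**Figure D4:**
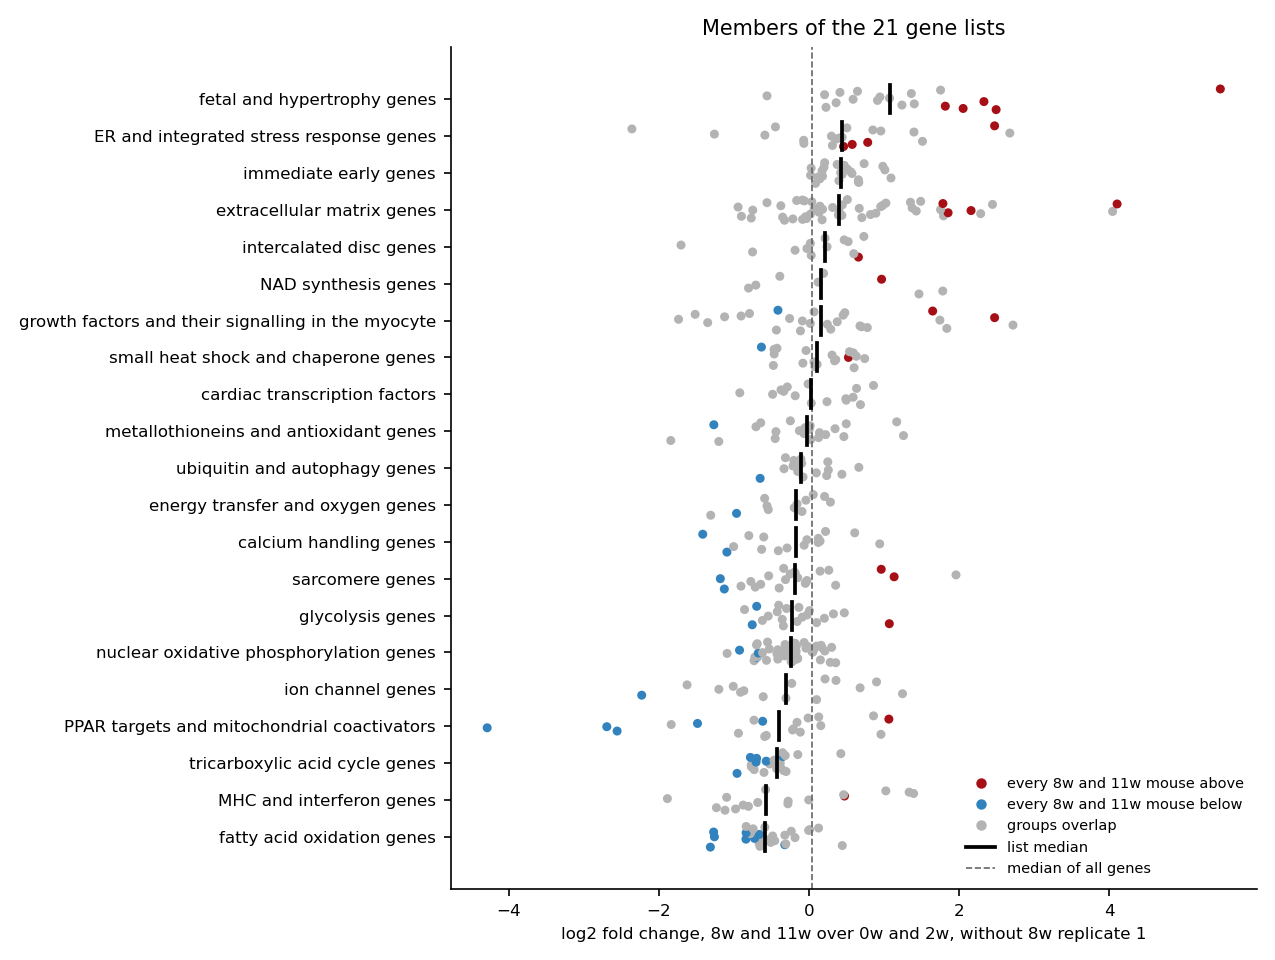
Every point is 1 tested gene's log2 fold change of 8w and 11w over 0w and 2w without 8w replicate 1, by list; red and blue points have all late mice above or below all early mice, black ticks are list medians and the dashed line is the median of all genes. The fetal list has the highest median, 1.07, and the fatty acid list the lowest, -0.59.

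Outside the lists, 4 further genes were called in at least one alternative and are named after their values were seen. Tmem101, a membrane protein, had 28.4, 91.0 and 138 CPM in 8w replicates 1, 2 and 3 and 89.3 and 68.2 CPM in 11w mice, against 23.1 and 23.1 CPM at 0w and 26.0 and 24.0 CPM at 2w. The early mice were close together and below every late one. Its log2 fold change was 2.02 ± 0.31 (SE) at an adjusted p = 0.0802, and of 0.00757 with thinned cells, and 1.79 ± 0.43 with 9 mice. Ppp1r3c, which targets a phosphatase to glycogen, had 67.8, 121 and 142 CPM in 8w replicates 1, 2 and 3 and 254 and 133 CPM in 11w mice, against 56.1 and 54.03 CPM at 0w and 32.6 and 44.2 CPM at 2w. It was at 1.804 ± 0.32 with an adjusted p = 0.139, and of 0.0122 with thinned cells, and 1.62 ± 0.38 with 9 mice. In 8w replicate 1, 2 of 123 CM cells held a Ppp1r3c UMI, and 1 cell held 272 of the 308 UMIs (88.3%). The value with 9 mice includes that mouse. Vav2 was at 1.87 ± 0.36 with an adjusted p = 0.153. Rpl3l, the muscle form of a ribosomal protein, had 65.9, 86.2 and 34.4 CPM in 8w replicates 1, 2 and 3 and 19.9 and 12.8 CPM in 11w mice, against 129 and 165 CPM at 0w and 151 and 152 CPM at 2w. It was at -1.93 ± 0.48 with an adjusted p = 0.244, and of 0.0414 with stage means, and -1.76 ± 0.47 with 9 mice.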

How the data were processed

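The deposited matrix gives raw UMI counts, as integers, for 36950 genes in each cell. The authors' cell annotation, also deposited, supplied mouse, type and subcluster. The submitters' processing notes name the aligner STAR (2.5.2b), featureCounts, the package Subread (1.4.6-p1) and the builds mm10 and GRCh37, without their roles. Strand use and UMI collapsing: not given in the sources used here. Per the labels' protocols, tissue was digested with protease XXIV and collagenase II for myocytes or with a papain enzyme for other cells. Each sample label, a stage and a replicate number, was taken as a separate mouse, and 0 cell names were shared between labels. For both 11w mice, non-mitochondrial matrix totals had a median of 0.48 of the authors' own UMI number per cell, and for the other 7 mice compared a median of 1.

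Counts of CM cells were summed per mouse without 34 mitochondrial genes and fitted with edgeR 4.0.16 in R 4.3.3 (filterByExpr, TMM factors, robust quasi-likelihood F test, two-sided), late against early with no covariate, with and without 8w replicate 1. Adjusted p are Benjamini-Hochberg over all genes tested. Adjusted p of genes are from this test unless DESeq2 1.42.0 is named. Mouse-level measures were compared by exact permutation of 126 splits, adjusted over 5 measures. Nuclear copies were found with blastn 2.17.0 at 90% identity over at least 50% of their length. Intervals are 95% exact binomial ones, and the limit for a count of 0 is 3 counts. Doublets were not called and no cell was filtered, so mixed cells remain in the sums. The edgeR steps were tested on simulated data with the same spread setting for every gene. That checks the steps only and does not bear on the spread between these mice.

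Genes were named by a rule: called genes at an average log2 CPM of at least 5 (the 10 highest and 10 lowest), the 2 members of each list with the smallest p, and a fixed set of well-known genes. That gave 53 genes, and 20 more were chosen after their values were seen. The arms, gene lists and tests were chosen with earlier results of these data known.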

Additional observations from a re-analysis of the deposited data

Results flagged for a closer look

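Values of 22 genes were checked in 54 groups of 4 or 5 mice for a mouse that stands apart from its arm, a check that marks about 1 in 20 groups by chance. It marked 2. Nmrk2 was at 186.5 CPM in 11w replicate 2, while the other late mice held 19.8 to 62.4 CPM, a gap of 0.744 of the whole range. Ppargc1a was at 210.0 CPM in 0w replicate 2, while the other early mice held 60.9 to 78.9 CPM, a gap of 0.879 of the range.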

How the results depend on the processing

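The count of genes called with 9 mice, 1, became 0 with no scaling factor, 4 with no low-count filter, 119 with DESeq2, 5 with stage means, 2 with thinned cells, 0 without the 11w mice, and 0 to 2 when 1 mouse was left out. Without 8w replicate 1 the count of 2 became 1 with no scaling factor, 56 with no filter, 220 with DESeq2, 34 with stage means, 8 with mitochondrial genes kept, 19 with thinned cells, 1 without the 11w mice, 29 with each gene's top cell left out, and 1 to 2 when 1 more mouse was left out; the 34 became 4 to 202. With a replicate block the counts were 0 and 2, but deviations of same-numbered mice correlated at -0.0324 to 0.0934 between stages, so the numbers do not pair the mice. Other scaling shifted the median of all genes from 0.091 to -0.207 with 9 mice and from 0.042 to -0.437 without 8w replicate 1. The CM share of annotated cells differed by -1.20 percentage points between the arms, and by -9.52 to 4.37 with 1 mouse left out. Some single genes changed sign. With 9 mice these were Dsp (-0.16 with no scaling factor, -0.10 without the 11w mice), Mef2a (-0.0163 thinned, -0.0498 without the 11w mice), Btg2 (-0.0119 without the 11w mice), Acta1 (0.20 with stage means, 0.20 with the 5w mice, 0.12 with the top cell left out, -0.36 to 0.53 with 1 mouse left out), Psmb9 (-1.10 with all, -1.89 to 0.16 with 1 mouse left out) and Cryab (-0.38 with no scaling factor, -0.11 with no filter, -0.13 with the block, -0.28 without the 11w mice, -0.27 to 0.34 with 1 mouse left out). Without 8w replicate 1 these were Mef2a (-0.0275 with no scaling factor, -0.0558 without the 11w mice), Acta1 (-0.31 with no scaling factor, -0.0327 with no filter, -0.0866 to 0.81 with 1 more mouse left out) and Cryab (-0.17 with no scaling factor). The cause was not tested. Of the other gene values, 1087 and 1015 kept direction and side of the threshold in the 2 fits, most of them by staying uncalled. A further 10 and 9 lost a call, and 10 and 46 gained a call. The late sums are shallower, and Dio2 and the late Ucp3 values rest on few cells.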
